A study of Salvia miltiorrhiza with 5 samples.

Results

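miR858 was represented in *Salvia miltiorrhiza* by 1 entry, aly-miR858-5p_L-1R+1_1ss5GA, among the 650 entries of the miRNA table, which hold 488 names and 241 distinct sequences. In the degradome table, miR858 was paired with 5 expressed sequence tags (ESTs, short reads of cloned transcripts), which are 5 of the 82 listed pairs of a miRNA and a transcript. Both sets were selected by name, as every entry or pair whose miRNA name holds miR858 with no further digit. The rule uses no measured value, but miR858 itself was chosen with earlier results of these data known. The small RNA libraries were made from root, stem, leaf and flower of field-grown plants at florescence, with 1 library per tissue. The degradome library, which captures the 5′ ends of cleaved transcripts, was made from the mixture of these tissues. All plants were untreated and no group served as a control. No tissue has a replicate, so each difference below is one between libraries.

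miR858 is a plant miRNA whose known targets are mRNAs of MYB transcription factors. In Arabidopsis these include MYB11, MYB12 and MYB111, which activate genes of flavonol synthesis, and the miRNA guides cleavage within the sequence that encodes the conserved DNA-binding repeat. Flavonoids share their first steps, the phenylpropanoid pathway, with the phenolic acids of *S. miltiorrhiza*, such as rosmarinic acid and salvianolic acid B, which are the water-soluble medicinal compounds of this sage. Neither a phenolic acid nor the level of a MYB transcript was analysed here, so the results concern the miRNA and the cleaved transcript ends.

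The sequence of these libraries was named after its nearest known miRNA, aly-miR858-5p of *Arabidopsis lyrata*, and both are shown because they differ in the seed. The seed, bases 2 to 8, is in capitals in the first 2 lines below. In the third line, a stretch of the *A. lyrata* precursor, capitals mark the 21 bases that align with the sequence found here.
aly-miR858-5p_L-1R+1_1ss5GA: tTCATTGTctgttcgaccttg
aly-miR858-5p: tTTCGTTGtctgttcgacctt
aly-MIR858 precursor stretch: tTTCGTTGTCTGTTCGACCTTGgtctcgat
The sequence found in *S. miltiorrhiza* begins at base 2 of the known miRNA. It shares 19 of the 20 bases that overlap and carries the substitution G5A, with positions counted from 1 at the 5′ end of the known miRNA and the known base given first. At its 3′ end it has 1 base more, a G that is also the next base of the *A. lyrata* precursor. It has 21 nt and a GC content of 42.9%.

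No other miRNA of the table resembled it closely. Of the 240 other sequences, 0 shared its seed, 0 held the letters of the seed anywhere and 0 shared the seed of the known miRNA. The nearest of them, PC-3p-72449_18, differed at 6 positions over 17 aligned bases. Its reads were whole numbers in every library, which means that none was divided with another entry. The entry lists 4 known precursors, aly-MIR858, ath-MIR858a, ath-MIR858b and mdm-MIR858, from 3 species. Its reads matched a known mature miRNA but no EST of *S. miltiorrhiza*, as was the case for all but 49 of the 650 entries, so no precursor of the plant itself stands behind it. The *A. lyrata* precursor has 938 nt, a GC content of 32.9% and a listed folding energy of -237.2 kcal/mol. With a median of 117 nt over the table, it is the longest precursor listed.

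Reads of miR858 were found in all tissues and most of them came from root. The root library held 146 reads, with an exact 95% Poisson interval of 123 to 172. The stem library held 38 reads (26.9 to 52.2) and the leaf library 36 reads (25.2 to 49.8). The flower library held the fewest, 28 reads (18.6 to 40.5). Root thus gave 58.9% of the 248 reads, against 15.3% for stem, 14.5% for leaf and 11.3% for flower. Intervals cover counting error only, since amplified reads without molecular identifiers are not independent molecules and neither plants nor library preparations were repeated. Each tissue is a bulk sample, in which fewer cells that hold the miRNA and less of it per cell cannot be told apart.

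The libraries differ in depth, so levels were compared as normalized counts, which are the reads times a factor set by the authors for each library. The factor was lowest for root, at 0.547, followed by stem at 0.715, flower at 1.41 and leaf at 1.90. The normalized count of miR858 was 79.9 in root (67.5 to 94.0) and 68.5 in leaf (47.9 to 94.8). It was 39.4 in flower (26.2 to 57.0) and 27.2 in stem (19.2 to 37.3). Root and leaf were therefore the high libraries and flower and stem the low ones, with 37.2%, 31.8%, 18.4% and 12.6% of the summed normalized count. In reads, leaf and stem were alike, and by the factors a read in leaf counts 3.47 times as much as a read in root. Scaled to clean reads it would count 1.65 times as much, and scaled to miRNA reads 2.10 times. The high place of leaf thus depends on the factor.

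The order of the tissues was read from the ratios of neighbouring levels, each with an exact binomial 95% interval. Root over leaf was 1.17 (0.806 to 1.73), so by the factors the 2 highest levels did not differ beyond counting error. Leaf over flower was 1.74 (1.03 to 2.95), just clear of 1. Flower over stem was 1.45 (0.859 to 2.43) and was not separated. Over greater distances in the order, root over flower was 2.03 (1.34 to 3.15), leaf over stem 2.52 (1.55 to 4.09) and root over stem 2.94 (2.05 to 4.32), all clear of 1. By the factors, 4 of the 6 pairs of libraries differed beyond counting error.

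Other ways of scaling the libraries left root on top and moved the others, as the plot of levels under 4 scalings shows. Per 1000000 clean reads, miR858 reached 16.5 reads (13.9 to 19.4) in root, where flower had 6.88 (4.57 to 9.95), leaf 6.69 (4.69 to 9.27) and stem 5.77 (4.08 to 7.92). On this scale leaf fell level with stem and flower, leaf over flower was 0.972 (0.577 to 1.65) and root over leaf rose to 2.46 (1.70 to 3.65). As a share of the miRNA reads, root had 292 per 1000000, leaf 151, stem 99.9 and flower 56.6. Flower was then the lowest tissue, with flower over stem at 0.566 (0.335 to 0.947). The miRNA reads made up 12.2% of the clean reads in flower and 4.43% to 5.77% in the other libraries, and the part of this in the flower value was not tested. Root over stem and root over flower stayed clear of 1 under all 4 scalings, while the place of the leaf did not hold. Root over leaf, not separated by the factors, was clear of 1 under each other scaling. It was 1.93 (1.34 to 2.87) as a share of miRNA reads and 1.82 (1.26 to 2.70) without the 10 most abundant sequences. Leaf over stem was clear of 1 by the factors only. It was 1.16 (0.715 to 1.88), 1.51 (0.932 to 2.45) and 1.20 (0.741 to 1.95) under the other scalings, in the same order. Leaf over flower was 1.61 (0.953 to 2.73) without the 10 most abundant sequences. In that order, 3, 5 and 3 of the 6 pairs were clear of 1.

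**Figure D1:**
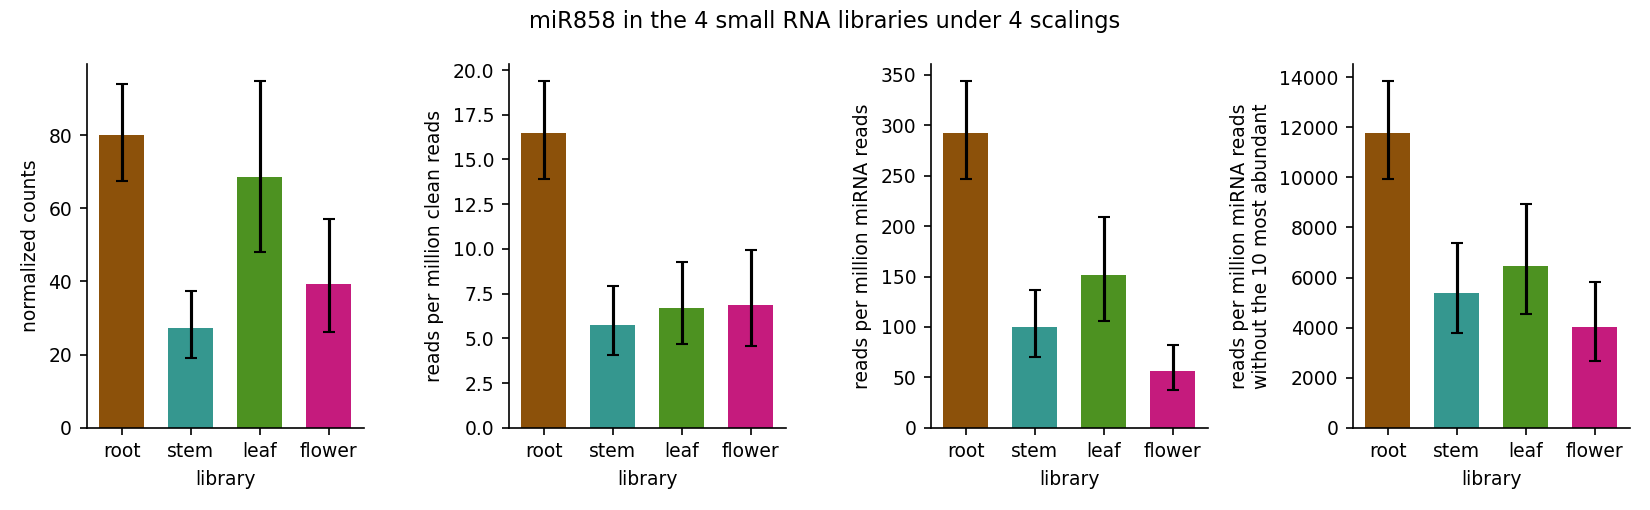
Level of miR858 in the root, stem, leaf and flower libraries under 4 scalings, each panel with its own linear axis from 0: normalized counts, reads per 1000000 clean reads, reads per 1000000 miRNA reads, and reads per 1000000 miRNA reads without the 10 most abundant sequences. Bars are the single library of a tissue and lines the exact 95% Poisson intervals. Root was highest in every panel, at 79.9 normalized counts, and the lowest tissue was stem in the first 2 panels and flower in the last 2.

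**Figure D2:**
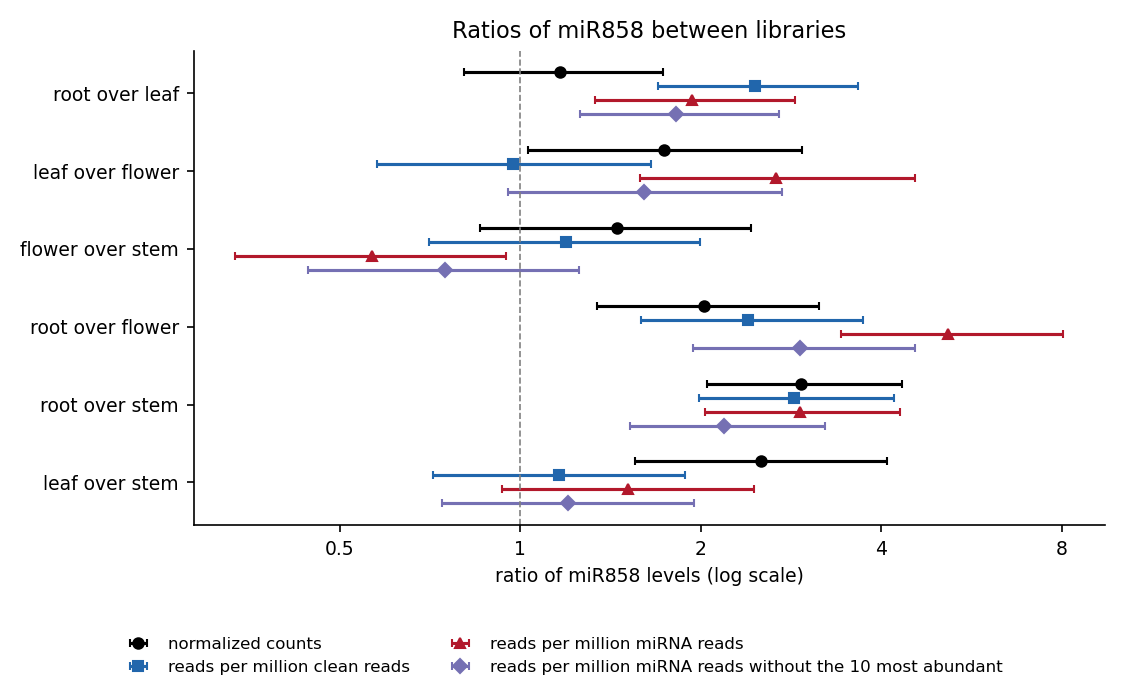
Ratios of miR858 levels for the 6 pairs of libraries on a log axis, with a symbol and colour for each of the 4 scalings and lines for the exact binomial 95% intervals. The dashed line marks a ratio of 1. Root over flower and root over stem lay to the right of it under all 4 scalings, leaf over flower at 0.972 and flower over stem at 0.566 and 0.749 crossed to its left.

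A chi-squared test of the reads against relative depths, taken as the inverse of the factors, gave p = 1.08e-09 for miR858. The statistic was 44.7 on 3 degrees of freedom. At the depths set by the factors, an even level would put 102 reads in root, 77.8 in the stem library, 29.2 in leaf and 39.5 in flower. Observed reads were above this in root and leaf and below it in stem and flower. An exact multinomial test of the same reads gave p = 3.18e-10, and the Benjamini-Hochberg adjusted p of the chi-squared test over the 271 names tested was 5.24e-09. Such a call was common in the table, since 36.2% of the names tested fell below the threshold of 0.01, and among the names with at least 10 reads 82.5% did. The share of names called was 32.1% after adjustment, and 35.8%, 33.9% and 33.6% under the other scalings, in the order of the panels in the plot of levels. By p-value miR858 stood at rank 56 of 271, so its call is not a result that sets it apart. The test compares these libraries and not the tissues.

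A Z-value over the 4 normalized counts, above 1 read as up-regulated and below -1 as down-regulated, was 1.06 in root and -1.08 in stem. By this rule miR858 was up-regulated in root and down-regulated in stem, both close to the threshold. A call with Z above 1 in root was given to 5.9% of the names tested, and one with Z below -1 in stem to 1.11%. Leaf, at 0.60, and flower, at -0.58, were not called. The call in root was lost on the log2 scale, with a Z-value of 0.97. The call in stem was lost under each other scaling of the libraries, where Z lay between -0.63 and -0.45.

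miR858 ranked in the upper part of the table but held few of its reads. It had 0.0154% of all miRNA reads, where the 10 most abundant sequences held 98.0%. Among the 241 sequences it was at rank 33 by reads, and within the libraries it ranked 26 for root, 27 for leaf, 31 for stem and 40 for flower. Among the 71 families, named by the number in the miRNA name, it was at rank 26, and 37 families had at least 10 reads. Its rank within a library does not depend on the scaling, and flower was the library where it stood lowest. Its share of the miRNA reads was 0.0292% in root and 0.0151% in leaf. Stem had 0.00999% and flower 0.00566%.

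The sequences with the tissue pattern most like that of miR858 were sought among the 37 sequences with at least 100 reads. Likeness was measured by the total variation distance, the sum of the positive differences between their shares of the normalized count in the 4 libraries, in percentage points. The nearest was ath-miR159a_R-1 at 13.7, a sequence of miR159, which targets GAMYB factors of the gibberellin response in other plants. It had 38.7% of its normalized count in leaf, 23.6% in root, 19.5% in stem and 18.2% in flower, so it was close to miR858 in flower, higher in leaf and stem, and lower in root. It had 183521 reads, far more than miR858.

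Of the others, ppe-miR1511-3p_L+1R-4 at 16.7 was the only one highest in root, with 36.7% there and 15.6% in leaf. A sequence of miR396, gma-miR396a-5p at 17.2, had 22.7% in root and 43.9% in leaf, and its family targets growth-regulating factors in other plants. mtr-miR168c-3p at 17.98 belongs to the family that acts on ARGONAUTE1 and was highest in leaf with 34.2%. aly-miR159a-3p_R+2 at 19.1 had 32.5% in leaf and 32.1% in flower. Over the 37 sequences the distance had a median of 29.5 and a range of 13.7 to 67.1. The comparison rests on 4 libraries that all sequences share and is a description. Only ath-miR159a_R-1 and gma-miR396a-5p were among the 5 nearest under each other setting tried. With sequences of at least 30 reads admitted, the nearest was PC-3p-294250_4, a miRNA predicted on an EST, at 4.92.

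**Figure D3:**
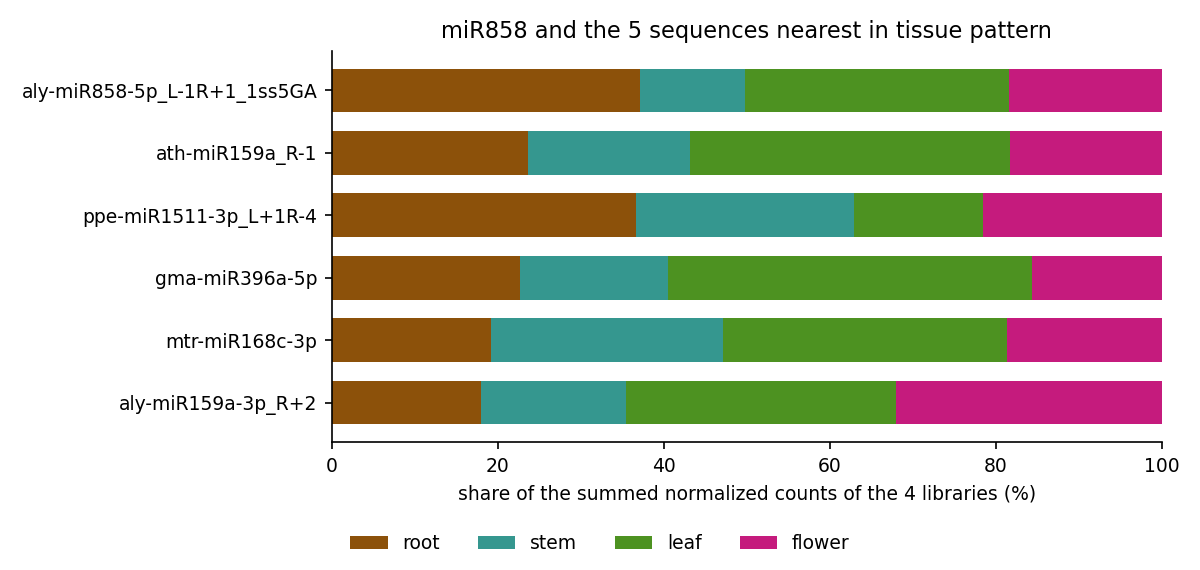
Share of the summed normalized count that each of 4 libraries took, in percent, for miR858 and the 5 sequences nearest to it among those with at least 100 reads, in order of distance from the top. Colours mark root, stem, leaf and flower. miR858 took 37.2% in root and 31.8% in leaf, while 4 of the 5 others were highest in leaf.

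Other miRNA families listed for MYB factors and for phenylpropanoid metabolism were set beside miR858 from a list of 10, of which 6 were found in the table. miR828, which also targets MYB factors of anthocyanin synthesis in Arabidopsis, was not found, nor were miR857, miR163 and miR1444. Several names can stand for the same sequence, with its reads split among them, so the families were counted by distinct sequence. Of the 41 sequences of the found families that could be tested, 17 were called by the chi-squared or exact test, or 41.5%, beside 39.1% of the 220 sequences tested in the whole table. With a Z-value above 1, 7 of the 41 were called for flower (17.1%), 6 for leaf (14.6%), 2 for root (4.88%) and 0 for stem. The same calls over all sequences took 10% for leaf, 17.7% for flower, 6.82% for root and 2.27% for stem. These shares lie near those of the whole table, so the tissues in which the listed families were called are not a result about them.

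Of the families that act on MYB factors, miR159 was the most abundant, with 183854 reads or 741 times those of miR858. Its normalized count was 68562 in leaf and 41842 in root, against 34584 in stem and 32348 in flower. Leaf was its highest library by the factors, root per 1000000 clean reads and as a share of miRNA reads, and stem once the 10 most abundant sequences were left out. miR319, which targets TCP factors of leaf growth and in Arabidopsis also shares some MYB targets with miR159, had 8991 reads. Root, with 2992 normalized counts, was followed by stem with 1907 and flower with 1101, and leaf had 143. miR319 was the only listed family that was highest in root under all 4 scalings, and it was lowest in leaf under all of them, where miR858 by the factors was lower only than in root.

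The families listed for phenylpropanoid metabolism were highest in leaf or flower by the factors. miR156, whose SPL targets restrain anthocyanin synthesis in Arabidopsis, was at 1181 normalized counts in flower, with 1077 for leaf, 633 for stem and 287 for root. Root was its lowest library under each scaling, but the highest changed among flower, leaf and stem. miR408, which acts on laccases and other copper proteins, had about as many reads as miR858, 259. Its normalized count was 246 in leaf and 100.4 in flower, against 23.4 in root, and stem had 15.5 reads in all. Leaf was its highest and stem its lowest library under all 4 scalings. Of its 2 sequences, 1 had enough reads to be tested and was called in leaf.

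miR397, which acts on laccases that polymerize lignin, had 24 reads, of which 12 came from flower, 7 from root, 4 from leaf and 1 from stem. With so few reads its levels are loose, though its name was called with a Z-value above 1 in flower. miR393 targets auxin receptors and in Arabidopsis shifts the balance of glucosinolates and camalexin. These are not phenylpropanoids, so its place in this list is loose. It was at 1460 normalized counts in flower, with 280.5 for leaf, 75.0 for stem and 7.11 for root. Flower was its highest and root its lowest library under all 4 scalings. By the factors, miR319 was the only one of these families that, like miR858, had its highest level in root. For miR858 root was not separated from leaf, at a ratio of 1.17 (0.806 to 1.73). The share of all families highest in root is not given here, so this is a description.

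**Figure D4:**
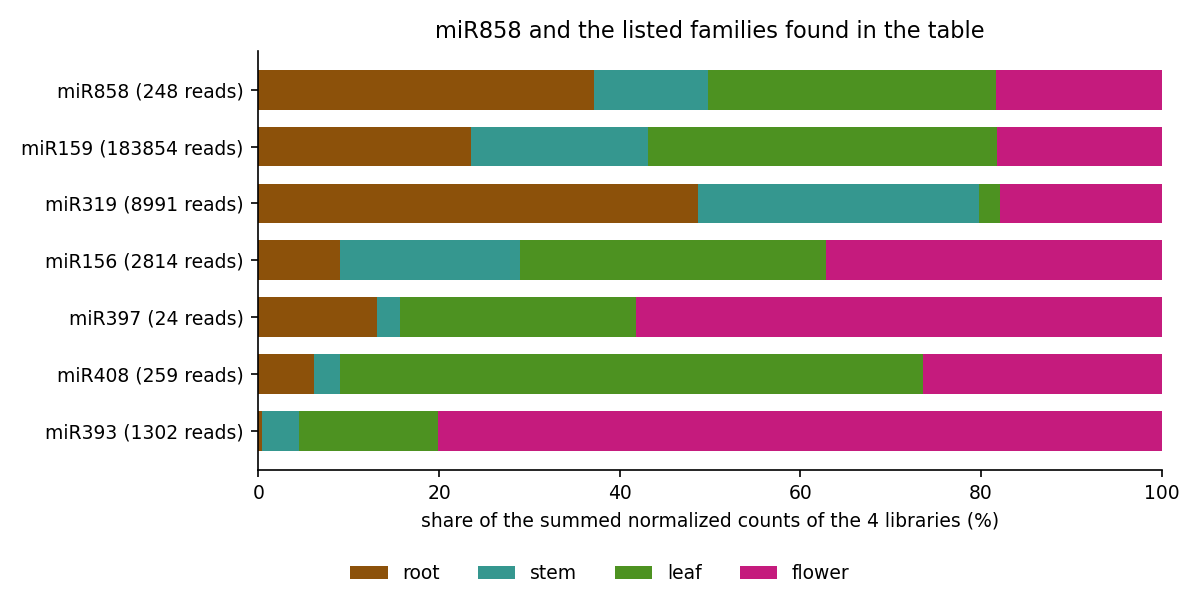
Share of the summed normalized count that each of 4 libraries took, in percent, for miR858 and the 6 listed families found in the table, with the reads of all libraries beside each name. Colours mark root, stem, leaf and flower. Root took 37.2% of miR858 and 48.7% of miR319, and flower took 80.1% of miR393.

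In the degradome, 4 of the 5 ESTs paired with miR858 were annotated as plant MYB proto-oncogene protein, the name that KEGG gives to MYB factors, and the other had no annotation. CV162912 was aligned at positions 165 to 185 with its cleavage site at 176, and CV166827 at 164 to 184 with its site at 175. CV169794 was aligned at 168 to 188 with its site at 179, and CV168132 at 344 to 364 with its site at 355. The EST without annotation, CV171628, was aligned at 55 to 75 with its site at 66. Positions are counted on each EST as the authors' table gives them. All 5 alignments cover 21 nt, and in all of them the cleaved end faced base 10 of miR858, where plant ARGONAUTE proteins cut. Every one of the 81 pairs with a readable alignment range faced base 9, 10 or 11, and 63 of them base 10. A pair is listed by its alignment, so this position does not set the miR858 pairs apart.

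The sequences of the ESTs were not used here, so the sites are shown by the perfect complement of miR858, from which the transcripts depart by the mismatches that the score counts. Capitals mark the 10 bases at the start of the 3′ fragment that the degradome reads capture, after the cut between the bases facing 11 and 10 of the miRNA.
complement of miR858: caaggtcgaacAGACAATGAA
A site may differ from these letters, since each pair had an alignment score of 3.5, where 0 is a perfect match.

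The 5 pairs shared 1 observation. Each was listed with 167 raw reads at the cleavage site (exact 95% Poisson interval 143 to 194), the same score, the same category and the same p-value. The divided read number, in which a read that matches several transcripts is split among them, was 33.4 for each, or 167 reads over 5 transcripts. The reads therefore place a cut end on at least 1 transcript of this group and cannot assign it among the 5 ESTs. Whether the ESTs come from 1 gene or several was not tested.

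The miR858 site was in the strongest category, with 1 other pair, and had the lowest p-value of the table. CleaveLand puts a site in category 0 when its reads are the single maximum on the transcript, and in category 4, the weakest, when there is only 1 read. The 5 miR858 pairs were in category 0, as was 1 other pair of the 82. The CleaveLand p-value, which is listed without adjustment, was 0.0700 for the miR858 pairs. It was the lowest of the table, where the other 77 pairs had a median of 0.958 and began at 0.119, and it did not reach 0.05. These pairs come from 1 library with no control, and ranks among them are descriptions. Pairs are not separate observations, since the 82 made 35 when those with the same values were counted once. Counts and medians of pairs therefore repeat some sites.

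The other pair of category 0 joined a miR319 name, aly-miR319a-5p_L-1R-1_1ss19TG, with CV170402, annotated as calmodulin, a calcium sensor. It had 128 raw reads, 64 divided reads, a score of 4 and a CleaveLand p-value of 0.119, and the miRNA had 13 small RNA reads. The pair of this miRNA with CV168798 had the same reads and score, but category 2 and a CleaveLand p-value of 0.9998. The p-value is therefore not separate from the category. Raw reads alone did not single out miR858, since 7 pairs had more, between 597 and 620. All 7 belonged to PC-5p-434679_3, a predicted miRNA with 4 small RNA reads, and had category 2, a score of 4 and a CleaveLand p-value of 0.9999. The 77 pairs of other miRNAs had a median of 4 raw reads and a range of 1 to 620.

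The alignment of miR858 was less distinct than its reads. Of the other pairs, 17 had a lower, hence better, score and 6 had the same score of 3.5. Several of these pairs repeat a site under another name or EST. Cleavage facing base 10 was found in 63 of the 81 pairs whose alignment range could be read, and in the others it faced base 9 or 11. The table holds 4 transcripts annotated as MYB, all paired with miR858 and 0 with another miRNA. None of the 5 transcripts was paired with another miRNA. The 82 pairs cover 69 transcripts, so most transcripts had a single pair, and this is not a result about those of miR858. Only 29 of the 69 transcripts had an annotation, so MYB transcripts among the others would not be seen.

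Among the 21 miRNA sequences with a pair, miR858 was among the higher both by small RNA reads and by degradome reads. It was at rank 5 by small RNA reads and at rank 3 by divided degradome reads summed over pairs, with 167 of 909.5, or 18.4%. This sum counts reads again for each further name or sequence paired with their site, so 18.4% is not a share of separate reads. Ahead of it by divided reads were PC-5p-434679_3 with 425 and the miR319 name with 181, which had 4 and 13 small RNA reads. The median of the 21 sequences was 2.5 small RNA reads and 12 of them had fewer than 10. Of the 7 sequences with at least 100 small RNA reads, the 6 others had only 1 to 32 divided degradome reads summed over pairs. The 32 belong to a miR3630 sequence with 16 raw reads, listed as han-miR3630-3p_L-2_1ss22TC and vvi-miR3630-3p_L-2_1ss21AT. Both names were paired with the same ESTs, so its reads were counted again. The degradome library mixes the tissues, so the tissue in which the cleaved ends arose cannot be told apart.

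**Figure D5:**
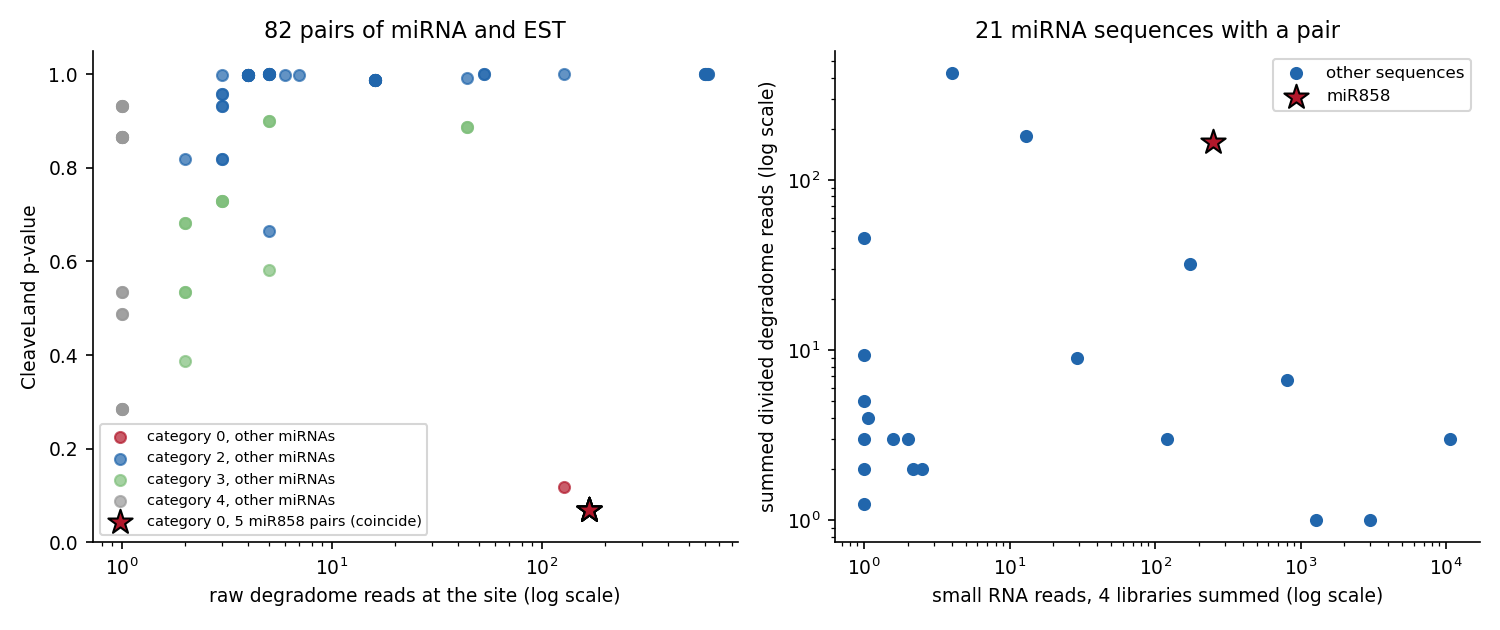
Left, CleaveLand p-value against raw degradome reads at the site (log axis) for the 82 pairs, coloured by category, with the 5 coinciding miR858 pairs as a star at 167 reads and a p-value of 0.0700. Right, divided degradome reads summed over pairs against small RNA reads summed over 4 libraries (both log axes) for the 21 miRNA sequences with a pair, with miR858 as a star at 248 small RNA reads and 167 divided reads.

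The annotated targets of other miRNAs include 2 peroxidase ESTs, CV169159 and CV169260, which KEGG places in phenylpropanoid biosynthesis and which were paired with miR5072. Peroxidases of this pathway oxidize lignin monomers. Each pair had 5 raw reads, 2.5 divided reads, category 3, a score of 4 and a CleaveLand p-value of 0.899, although miR5072 had 803 small RNA reads. The miR858 pairs had more reads of both kinds, a lower category and a lower p-value, which is not separate from the category.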

How the data were processed

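Small RNA libraries of root, stem, leaf and flower and 1 degradome library of their mixture were assigned by their labels. The authors removed adapters, low-quality reads and other RNA classes, kept reads of 18 to 25 nt and compared them with miRBase 20.0 and ESTs of the plant, using ACGT101-miR 4.2. The reads per entry in their deposited table are estimated counts, because reads with several matching entries were split among them. The deposited normalized counts, a signal, equal the reads times 1 factor per library. How the factors were set is not given in the sources used here. The degradome was processed by the authors with CleaveLand 3.0 and ACGT301-DGE 1.0, and the deposited raw reads are a count at each site, listed with the signal left after division among transcripts, the score of the alignment, its category and a p-value. Target names are those of the study's KEGG annotation, and its other annotation and its RT-qPCR were not analysed here, nor were 6 lines of the miRNA table that arrived empty.

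Reads of a name, a sequence or a family were added up and, for the tests only, rounded to whole numbers in each library. Intervals are exact at 95%. Ratios were conditioned on the summed reads of both libraries. Names left with at least 1 rounded read in some library were tested. Pearson's chi-squared test was used against the relative depths that a scaling implies. Where any expected count was under 5, an exact multinomial test took its place. The threshold of 0.01 without adjustment and the Z-value, here with the sample SD, follow the study, which names chi-squared and ANOVA tests on normalized counts. Reads and depths were used here in their place because a chi-squared test needs counts, and ANOVA was not run because no tissue has a replicate. With 1 library per tissue no test between tissues was possible and no count model was fitted. The statistics were tested on simulated data. Alternatives covered the scaling of the libraries, the test and its adjustment, the unit counted as 1 miRNA, the minimum of reads, the Z-value, the degradome reads compared and the measure of likeness. Clean reads are the library totals that the study gives. The sequences set beside miR858 are the 5 nearest in tissue pattern with at least 100 reads, the families come from 2 lists, and the degradome pairs are those of category 0, those with more raw reads and those annotated as peroxidase. miR858 and the lists were chosen with earlier results of these data known. The software was Python 3.11.15 with scipy 1.17.1, pandas 2.3.3, numpy 2.4.6 and, for figures, matplotlib 3.10.9.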

Additional observations from a re-analysis of the deposited data

How the results depend on the processing

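Of 58 alternative values, 37 kept their direction and their side of the threshold or stayed within counting error, among them the test of miR858 under each scaling, root over stem, and the number of names past the test. Per 1000000 clean reads, leaf over flower turned to 0.972, root over leaf became 2.46 and leaf over stem 1.16, and the Z-values were -0.45 in leaf and -0.63 in stem. As a share of miRNA reads, root over leaf was 1.93, leaf over stem 1.51, flower over stem 0.566 and root over flower 5.17, which became the ratio of the highest to the lowest library, and Z in stem was -0.49. Without the 10 most abundant sequences these ratios were 1.82, 1.20, 0.749 and 2.92, with Z at -0.45 in stem and -0.13 in leaf. On the log2 scale with a pseudocount of 1, Z in root was 0.97. Of the 5 sequences nearest to miR858, 2 were shared with those by Pearson's correlation, 3 with those at a minimum of 30 reads and 3 with those per 1000000 clean reads. The cause of these changes was not tested. No paired analysis was possible because each tissue has 1 library and the labels carry no replicate numbers, and for the same reason no replicate could be left out. In stem, leaf and flower, 28 to 38 reads limit the precision.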
